A study of Homo sapiens with 8 samples.

Results

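Class 3 semaphorins are secreted guidance proteins, and they were followed here together with the receptors that bind them in ribosome footprints of G401 cells. The set holds 10 of the 20719 gene IDs counted: the 6 ligands SEMA3A, SEMA3B, SEMA3C, SEMA3D, SEMA3E and SEMA3F, the 2 neuropilins NRP1 and NRP2, and the 2 plexins PLXNA1 and PLXND1. It was selected on the footprint counts of SEMA3A, chosen by their strong difference between the 2 engineered lines. Values of these 10 genes between the lines are therefore given as a description with no test, and tests are given for the doxycycline effect within each line.

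A class 3 semaphorin usually acts through a neuropilin, which binds the ligand, and a plexin, which spans the membrane and carries the signal to small GTPases and the cytoskeleton. SEMA3A binds mainly NRP1 and SEMA3F mainly NRP2, while SEMA3E can bind PLXND1 without a neuropilin. The family steers growing axons and vessels, and in the kidney it takes part in the branching of the developing organ and in podocytes.

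G401 cells come from a rhabdoid tumor of the kidney and lack SMARCB1, a core subunit of the mSWI/SNF chromatin remodeling complexes. The SMARCB1 line carries SMARCB1 and the GFP line carries GFP, each under a Tet-On system that doxycycline (Dox) switches on. Both lines were given 0.1 µg/ml Dox or an equivalent amount of DMSO for 12 h, which makes the groups SMARCB1 Dox, SMARCB1 DMSO, GFP Dox and GFP DMSO with 2 libraries each. RiboLace was used to isolate RNA on active ribosomes, and the counts of protected fragments on coding sequence ranged from 5924443 to 14000039 per library. Plates of a condition were pooled before the isolation, and the methods state duplicates without saying whether these are separate cultures, so p-values measure only the spread between these libraries, which may be technical. Whether a line is a single clone is not given in the sources used here, so the transgene and the history of a line cannot be told apart. RNA levels were not analysed here, and footprint values are not translation efficiencies.

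As a check on the labels, replicates 1 and 2 of SMARCB1 Dox held 2553 and 1750 counts of SMARCB1, and the count was 0 everywhere else. VIM, a mesenchymal marker of rhabdoid cells, led the rhabdoid list, whose summed level was 2470, 3380, 2840 and 2710 CPM (counts scaled to library size with TMM) in the SMARCB1 line, against 1480, 1620, 1210 and 1620 CPM in the GFP line, listed here and below as DMSO replicates 1 and 2 and then Dox replicates 1 and 2. The list is VIM and SMARCB1, so the SMARCB1 Dox sums include the transgene at 214 and 277 CPM, beside VIM at 2630 and 2440 CPM. The 4 haematopoietic markers were at 0 in all 8 libraries, and the 4 endothelial markers summed to 0.347 to 1.59 CPM with VWF the most abundant. The 4 neuronal markers, with TUBB3 the most abundant, summed to 1.83, 2.42, 0.753 and 2.85 CPM in the SMARCB1 line, against 5.35, 5.91, 3.97 and 7.1 CPM in the GFP line. The epithelial list summed to 2100, 3400, 1970 and 2300 CPM in the SMARCB1 line, against 3700, 4240, 3980 and 3890 CPM in the GFP line, through the keratins KRT8 and KRT18, which rhabdoid cells can express, while EPCAM and CDH1 were near 0.

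The 4 fibroblast markers summed to 761, 1230, 782 and 1440 CPM in the SMARCB1 line, against 1690, 2410, 1900 and 2570 CPM in the GFP line. The collagen gene COL1A1 moved with the line, with 39.2 to 53.7 CPM in the SMARCB1 line, against 1000 to 1480 CPM in the GFP line, while COL1A2 overlapped, with 715, 1180, 742 and 1390 CPM in the SMARCB1 line, against 684, 1020, 687 and 1090 CPM in the GFP line, and DCN and LUM were at 0 throughout. The rhabdoid, neuronal, epithelial and fibroblast sums thus did not overlap between the lines, and their part in the values of the semaphorins was not tested. In such bulk footprint libraries, fewer cells of a type, less RNA per cell and fewer ribosomes per RNA cannot be told apart. GFP Dox replicate 1 stood apart from the other libraries, with 56.4% of its entries multimapped against 25.6% to 39.7% elsewhere, and many log2 values that rest on it are also given without it and without GFP Dox replicate 2, written below as without replicate 2.

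Among the ligands, SEMA3A, the founding collapsing factor for growth cones, had 571 and 566 CPM in SMARCB1 DMSO and 412 and 445 CPM in SMARCB1 Dox. Its level was 8.64 and 6.32 CPM in GFP DMSO and 4.14 and 8.13 CPM in GFP Dox. All 4 libraries of the SMARCB1 line lay above all 4 of the GFP line, and the lowest of the former was 47.7-fold above the highest of the latter. SEMA3A footprints were still counted in each GFP line library, with 105, 91, 25 and 55 counts. The log2 difference between the lines was 6.25 under DMSO and 6.11 under Dox, or 5.72 under Dox without GFP Dox replicate 1 and 6.69 without replicate 2.

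SEMA3D and SEMA3E, which lie beside SEMA3A on chromosome 7, had the same order of the lines. For SEMA3D the level was 70.2 and 75 CPM in SMARCB1 DMSO, 53.3 and 72.9 CPM in SMARCB1 Dox, 2.55 and 2.08 CPM in GFP DMSO, and 3.97 and 0.74 CPM in GFP Dox. SEMA3E, a ligand known for its action on vessels through PLXND1, had 665 and 464 CPM in SMARCB1 DMSO, 451 and 385 CPM in SMARCB1 Dox, 87.6 and 83.6 CPM in GFP DMSO, and 128 and 76.9 CPM in GFP Dox. The lines did not overlap for either gene, with a gap of 13.4-fold for SEMA3D and 3.02-fold for SEMA3E between the nearest libraries. GFP Dox replicate 1 was the highest GFP line library for both, and without it the log2 difference under Dox went from 4.77 to 6.39 for SEMA3D and from 2.03 to 2.44 for SEMA3E. Without GFP Dox replicate 2 instead, that of SEMA3D was 3.98 and that of SEMA3E 1.71. The 2 GFP Dox libraries of SEMA3D rest on 24 and 5 counts.

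SEMA3B had the opposite order. This ligand, encoded on the short arm of chromosome 3 in a region often lost in lung tumors, had 1.33 and 2.8 CPM in SMARCB1 DMSO and 5.35 and 6.02 CPM in SMARCB1 Dox. Its level in the GFP line was 40.1 and 35.7 CPM under DMSO and 38.1 and 50 CPM under Dox. All 4 SMARCB1 line libraries lay below the GFP line, with a gap of 5.93-fold and a log2 difference of -4.09 under DMSO and -2.96 under Dox, or -3.14 under Dox without GFP Dox replicate 1 and -2.75 without replicate 2, and SMARCB1 DMSO replicate 1 held only 8 counts. Leaving out each library in turn gave -4.82 to -3.75 under DMSO.

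Over both treatments the lines overlapped for SEMA3C and SEMA3F. SEMA3C, which guides neural crest cells in the developing heart, ranged from 341 to 622 CPM in the SMARCB1 line, and from 358 to 440 CPM in the libraries with GFP. Under DMSO alone its 622 and 463 CPM in the SMARCB1 line lay above the 440 and 359 CPM of the GFP line, a log2 difference of 0.44, and under Dox it was -0.03 with overlap, or 0.06 without GFP Dox replicate 1 and -0.11 without replicate 2. SEMA3F, a repellent for axons and vessels that signals through NRP2, ranged from 8.02 to 23.3 CPM and from 15.6 to 21.7 CPM in the same order. Under DMSO alone both SMARCB1 line libraries of SEMA3F lay below the GFP line, and under Dox they overlapped. Its log2 difference between the lines was -0.88 under DMSO and 0.11 under Dox, or -0.08 under Dox without GFP Dox replicate 1 and 0.34 without replicate 2.

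**Figure D1:**
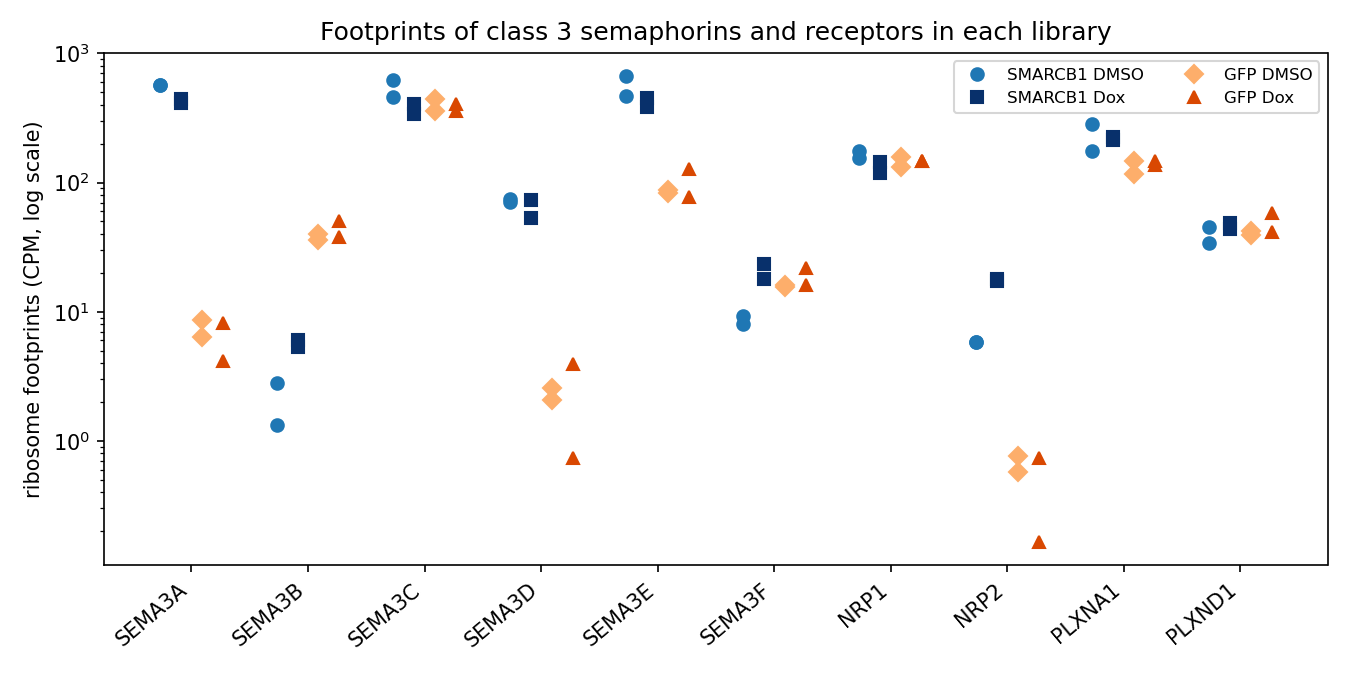
Ribosome footprints of the 10 genes in each of the 8 libraries, in CPM on a log axis, with 1 point per library and 1 color and shape per group. SEMA3A, SEMA3D, SEMA3E, NRP2 and PLXNA1 lie higher in all 4 libraries of the SMARCB1 line, and SEMA3B lies lower.

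Across the 10 genes, the 4 SMARCB1 line libraries lay above the 4 GFP line libraries for 5 genes and below them for 1, and 4 genes overlapped. Over all 11097 genes tested, 8.61% lay above and 8.95% lay below in this way. The median log2 difference of the 10 genes was 0.62 under DMSO and 0.37 under Dox, beside 0.02 and -0.01 over all genes, and the median under Dox was 0.38 without GFP Dox replicate 1 and 0.51 without replicate 2. All of these values share the contrast that chose the genes and support nothing beyond it. All 10 genes passed the expression filter, NRP2 only through its level in the SMARCB1 line, so that a difference between the lines was a condition of its passing.

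To compare levels between genes, CPM was divided by the length of the longest coding sequence in kilobases, which gives a footprint density. In SMARCB1 DMSO the highest densities were those of SEMA3A (246 ± 1.63, SD, n = 2), SEMA3E (243 ± 61.1) and SEMA3C (241 ± 49.9 CPM per kb). The libraries of these 3 genes overlapped in neighboring pairs, so their order is not resolved. All 3 lay above NRP1 at 59.3 ± 5.3 CPM per kb, and SEMA3B was the lowest of the 10 genes at 0.915 ± 0.46 CPM per kb. In GFP DMSO the order began with SEMA3C at 177 ± 25.3 CPM per kb, then NRP1 at 51.9 ± 6.61 and SEMA3E at 36.8 ± 1.21 CPM per kb, each apart from the next in both libraries. With the union of coding exons as length, NRP1 at 39.5 and SEMA3E at 36.6 CPM per kb overlapped, so their order depends on the length used. SEMA3A was eighth in this group at 3.23 ± 0.708 CPM per kb, below SEMA3B at 16.8 ± 1.39 CPM per kb.

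The make-up of the ligand pool by density therefore differed between the lines. SEMA3A, SEMA3C and SEMA3E shared it about evenly in SMARCB1 DMSO, with 32.4% ± 4.45, 31.3% ± 1.98 and 31.4% ± 3.46 of the summed density of the 6 ligands. In GFP DMSO the share of SEMA3C was 73.2% ± 1.84, that of SEMA3E 15.3% ± 1.27 and that of SEMA3A 1.32% ± 0.134. The summed ligand density was 844 and 686 CPM per kb in SMARCB1 DMSO, 585 and 553 in SMARCB1 Dox, 262 and 222 in GFP DMSO, and 261 and 227 in GFP Dox. The ratio of SEMA3F to SEMA3B in density was between 2.75 and 6.72 in the 4 SMARCB1 line libraries and between 0.374 and 0.434 in the 4 GFP line libraries. SEMA3F was thus the more abundant of these neighbors on chromosome 3 in the SMARCB1 line and SEMA3B in the GFP line.

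**Figure D2:**
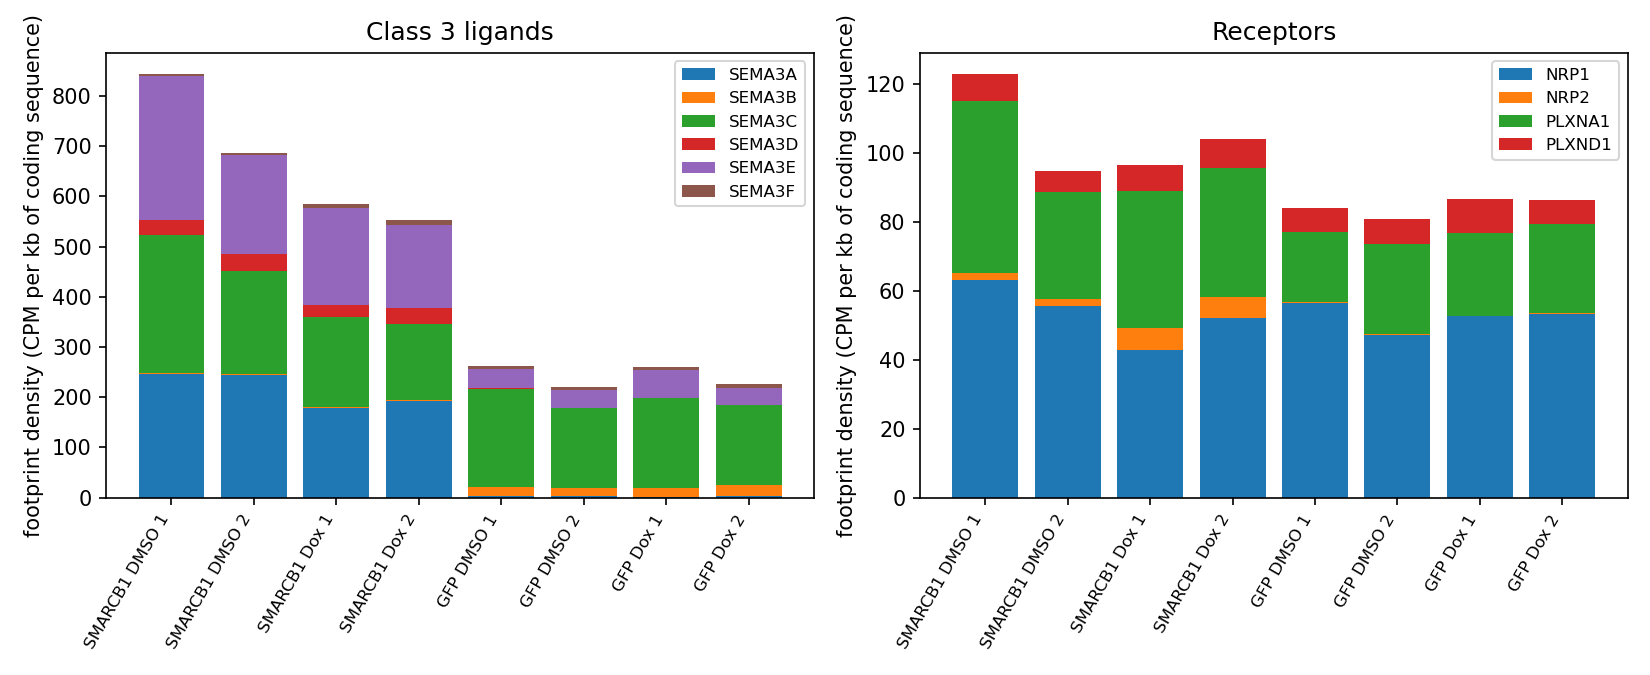
Footprint density in CPM per kb of coding sequence, stacked by gene for the 6 ligands (left) and the 4 receptors (right), with 1 bar per library. The ligand bars of the SMARCB1 line reach 553 to 844 and those of the GFP line 222 to 262, where SEMA3C makes up most of each bar.

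The semaphorin genes SEMA3C, SEMA3E, SEMA3A and SEMA3D lie on the minus strand of chromosome 7, in that order along it. SEMA3A spans chr7:83955777-84492724 (GRCh38), with SEMA3E at chr7:83363238-83649139 and SEMA3D at chr7:84995553-85187056 as its nearest protein-coding neighbors, and SEMA3C at chr7:80742538-80922359 is farther away. By gene midpoint the distance from SEMA3A was -0.72 Mb for SEMA3E, 0.87 Mb for SEMA3D and -3.39 Mb for SEMA3C. The 3 adjacent genes were higher in all 4 libraries of the SMARCB1 line than in all 4 of the GFP line, and SEMA3C was higher only under DMSO, with a log2 difference of 0.44. PCLO, the neighbor of SEMA3E on its other side and a scaffold protein of the synapse, had a log2 difference between the lines of 1.14 under DMSO and 0.22 under Dox, or 0.57 under Dox without GFP Dox replicate 1 and -0.06 without replicate 2, so its direction under Dox is not settled. GRM3, a glutamate receptor beyond SEMA3D, was too low to be tested.

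Of the 10 other protein-coding genes within 2 Mb of these chromosome 7 semaphorins, 7 were tested. Between the lines, 2 of the 7 were called higher under DMSO (PCLO and GNAT3) and 1 lower (GNAI1), and under Dox 1 was called (GNAT3, higher). This GNAT3 call under Dox rests on few footprints, since GFP Dox replicate 1 held only 2 and replicate 2 only 7. For SMARCB1 Dox, replicate 1 held 94 footprints of GNAT3 and replicate 2 held 65. The GFP Dox libraries may thus have lain below the expression filter. A high level in SMARCB1 Dox may then have been a condition of this call. CACNA2D1, a calcium channel subunit between SEMA3C and PCLO, had log2 differences of 0.45 and 0.24 (0.44 without GFP Dox replicate 1 and 0.06 without replicate 2) and was not called. On chromosome 3, where SEMA3B and SEMA3F lie between GNAI2, LSMEM2, RBM5 and GNAT1, 76 of 115 neighbors were tested and 1 was called lower under DMSO (SHISA5, -1.28) and 1 lower under Dox (ZNF589, -1.28, not called without GFP Dox replicate 1). Around NRP2, 13 of 20 neighbors were tested, with 1 called higher (PARD3B) and 3 lower (ZDBF2, ADAM23 and KLF7) under DMSO and 4 called under Dox, all lower (the same 3 and MDH1B). Around PLXNA1 20 were tested, with 2 called higher under DMSO (HEG1 and PODXL2) and 1 under Dox (HEG1), around PLXND1 25, with 1 (PODXL2) and 0, and around NRP1 10, with 0 and 0. Over all genes 4.97% were called under DMSO and 6.08% under Dox at an adjusted p below 0.05 and a fold change above 2. Neighbors were called on chromosomes 2, 3 and 7, and the share called differed between the neighborhoods. These counts describe the neighborhoods, and no comparison of neighborhoods was tested.

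**Figure D3:**
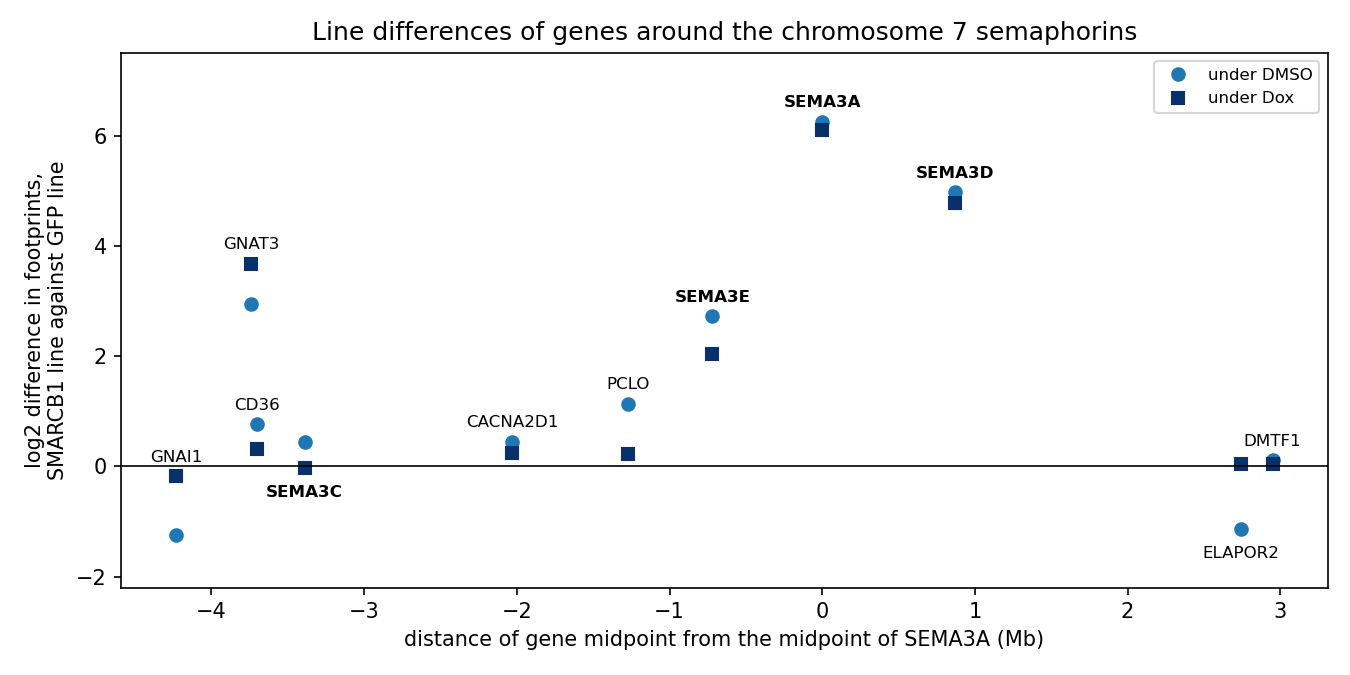
Log2 difference in footprints between the SMARCB1 line and the GFP line against the distance of each gene's midpoint from that of SEMA3A in Mb, for the 4 semaphorins (bold) and the 7 tested neighbors, under DMSO (circles) and Dox (squares). SEMA3A, SEMA3D and SEMA3E stand above the neighbors within 3 Mb on either side, and GNAT3 is high at -3.74 Mb.

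Promoter sequences are shown for the chromosome 7 ligands with an entry, since SEMA3D and SEMA3E shared the order of the lines seen for SEMA3A over all 8 libraries while SEMA3C had it only under DMSO. They come from RefSeq on GRCh38.p14, cover 250 bases before to 50 bases after a transcript start, and matched 8 of the 10 genes, with SEMA3A and NRP1 unmatched. Where a gene had several starts, the nearest to its canonical GENCODE start was taken. The motifs searched on both strands were the GC box (GGGCGG), the CCAAT box (CCAAT), the TATA box (TATAAA), the AP-1 motif (TGANTCA) and the E-box (CACGTG), and capitals mark the matches, with 0 overlaps between different motifs. Of 35116 promoters of this length, 45.0% hold the GC box, 34.6% CCAAT, 11.5% the TATA box, 7.71% the AP-1 motif and 7.26% the E-box. SEMA3C (chr7:80919002-80919301, minus strand) has 75.7% GC, 46 CpG and 3 GC boxes. SEMA3D (chr7:85187007-85187306, minus strand) has 57% GC, 14 CpG and 0 matches. SEMA3E (chr7:83649090-83649389, minus strand) has 47.3% GC, 6 CpG and 1 E-box, and the median over all promoters is 58.7% GC. The window of SEMA3D is thus close to that median, with 45.5% of promoters lower in GC, while that of SEMA3E is poorer and that of SEMA3C richer. This is a description of the letters only, and without an entry for SEMA3A no trait shared with it can be read.
SEMA3C: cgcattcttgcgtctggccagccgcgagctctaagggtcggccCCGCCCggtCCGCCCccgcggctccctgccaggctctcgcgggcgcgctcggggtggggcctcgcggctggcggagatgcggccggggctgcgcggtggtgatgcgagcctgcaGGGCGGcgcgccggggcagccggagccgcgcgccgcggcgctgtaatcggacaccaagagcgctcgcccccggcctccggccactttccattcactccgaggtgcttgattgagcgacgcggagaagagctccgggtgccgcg
SEMA3D: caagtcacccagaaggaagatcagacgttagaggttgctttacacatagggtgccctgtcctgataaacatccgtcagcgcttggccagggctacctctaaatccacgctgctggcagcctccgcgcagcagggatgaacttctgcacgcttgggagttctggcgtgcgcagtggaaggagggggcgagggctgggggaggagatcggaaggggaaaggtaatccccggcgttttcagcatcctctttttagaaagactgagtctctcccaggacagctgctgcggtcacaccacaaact
SEMA3E: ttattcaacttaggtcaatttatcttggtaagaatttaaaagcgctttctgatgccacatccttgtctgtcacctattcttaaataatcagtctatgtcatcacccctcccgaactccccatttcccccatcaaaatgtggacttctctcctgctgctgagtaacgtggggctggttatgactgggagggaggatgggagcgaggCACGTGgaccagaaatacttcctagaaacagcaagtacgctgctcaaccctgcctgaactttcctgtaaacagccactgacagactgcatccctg

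Under Dox in the SMARCB1 line, which switches SMARCB1 on, 3 of the 10 genes had both Dox libraries above both DMSO libraries: SEMA3B, SEMA3F and NRP2. SEMA3A, SEMA3C, SEMA3E and NRP1 had both below, and 3 genes overlapped. Over all 11097 genes, 17.3% had both Dox libraries above and 18.3% both below. SEMA3F had, in the GFP line, both Dox libraries above, 0 genes had both below and 9 overlapped, beside 13.1% above and 13.2% below over all genes. With 2 libraries a group, such an order alone is common among all genes.

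By the quasi-likelihood test of edgeR, adjusted over all genes by the Benjamini-Hochberg method, 0 of the 10 genes were called for the Dox effect in the SMARCB1 line, beside 0.018% of all genes. At an unadjusted p below 0.05 the number was 4 of the 10 and 552 of all 11097, and DESeq2 called 0 of the 10 and 34 of all. EdgeR called 0 of the 10 in the GFP line, beside 0% of all genes, with 0 of the 10 and 240 of all at an unadjusted p below 0.05, and DESeq2 called 0 genes. For the difference between the 2 effects edgeR also called 0 of the 10, beside 0% of all, with 3 of the 10 and 443 of all at an unadjusted p below 0.05, and DESeq2 called 0 of the 10 and 1 of all. Without GFP Dox replicate 2 edgeR called 147 genes in the GFP line and 105 for the difference, and without either GFP Dox library 22 in the SMARCB1 line, with 0 of the 10 genes in each. The median log2 Dox effect of the 10 genes was -0.14 in the SMARCB1 line, against 0.06 in the GFP line, beside -0.02 and 0.02 over all genes. Library size without further scaling moved the median over all genes to 0.09 and -0.06 and that of the difference from -0.03 to 0.16, and it turned the small SMARCB1 line effect of PLXNA1 from -0.07 to 0.02. The Dox effect in each line shares its DMSO libraries with the comparison of the lines under DMSO.

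In the main fit, though not without GFP Dox replicate 1, the ligand SEMA3F had the smallest p among the 10 genes. Its level of 9.34 and 8.02 CPM in SMARCB1 DMSO and 17.9 and 23.3 CPM in SMARCB1 Dox put both Dox libraries above the 15.6 and 16.1 CPM of GFP DMSO and overlapped GFP Dox at 16.2 and 21.7 CPM. The log2 Dox effect in the SMARCB1 line was 1.25 ± 0.32 (SE), a fold of 2.37, with an adjusted p of 0.354 from edgeR's quasi-likelihood test and a range of 0.078 to 1 over the alternatives. In the GFP line the effect was 0.26 ± 0.31 with an adjusted p of 1 from the same test, or 0.45 without GFP Dox replicate 1 and 0.03 without replicate 2. The difference between the effects was 0.99 ± 0.44, with an adjusted p of 0.981 from edgeR (range 0.184 to 1), or 0.80 without GFP Dox replicate 1 and 1.22 without replicate 2, so a difference between the lines was not shown.

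SEMA3B had 8 and 36 counts in SMARCB1 DMSO and 64 and 38 counts in SMARCB1 Dox. Scaled to library size the pooled Dox counts were 2.39 times the DMSO counts, with an exact 95% interval of 1.66 to 3.49 that covers counting error only. The fitted log2 effect was 1.35 ± 0.38, with both Dox libraries higher and an adjusted p of 0.415 from edgeR's quasi-likelihood test (range 0.123 to 1). It went from 1.01 without SMARCB1 DMSO replicate 1 to 2.07 without SMARCB1 DMSO replicate 2. Even so, SEMA3B in SMARCB1 Dox stayed below each GFP line library. Its effect in the GFP line was 0.22 ± 0.30, and the difference was 1.14 ± 0.48 with an adjusted p of 0.981 from edgeR (range 0.187 to 1). Without GFP Dox replicate 1 these were 0.40 and 0.94, and without replicate 2 they were 0.00 and 1.34. Over each library left out in turn, the difference ranged from 0.79 to 1.86.

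The ligands that were abundant in the SMARCB1 line had fitted effects below 0. For SEMA3C, from 622 and 463 CPM under DMSO to 404 and 341 CPM under Dox, the log2 effect was -0.54 ± 0.25 with an adjusted p of 0.998 from edgeR's quasi-likelihood test (range 0.528 to 1). For SEMA3E it was -0.43 ± 0.28 and for SEMA3A -0.41 ± 0.27, each with both Dox libraries lower and an adjusted p of 1. SEMA3D overlapped between the treatments at -0.21 ± 0.37. The share of SEMA3A in the ligand density was 32.4% ± 4.45 without and 32.6% ± 3.04 with Dox in this line, and this share moved by less than the spread between replicates.

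In the GFP line the effects on these ligands depended on which GFP Dox library was used. The log2 effect of SEMA3A was -0.27 ± 0.32, with 0.12 without GFP Dox replicate 1 and -0.85 without replicate 2. That of SEMA3E was 0.26 ± 0.28, with -0.16 and 0.57 in the same order. That of SEMA3D was -0.00 ± 0.51, with -1.63 (from 5 counts in the remaining Dox library against 61 in GFP DMSO) and 0.78. The direction for these 3 genes thus differed between the 2 libraries.

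The neuropilins differed from each other in level and in pattern. NRP1, the receptor shared by SEMA3A and VEGF, had 175 and 154 CPM in SMARCB1 DMSO, 119 and 144 CPM in SMARCB1 Dox, 157 and 131 CPM in GFP DMSO, and 146 and 148 CPM in GFP Dox. Over both treatments the lines overlapped, while under Dox alone both SMARCB1 line libraries lay just below the GFP line, with a log2 difference of 0.19 under DMSO and -0.16 under Dox, or -0.17 under Dox without GFP Dox replicate 1 and -0.15 without replicate 2. NRP1 thus stayed within a narrow range while its ligand SEMA3A spanned 4.14 to 571 CPM. The Dox effect was -0.32 ± 0.23 in the SMARCB1 line, against 0.03 in the GFP line (-0.05 with library size only), each with an adjusted p of 1 from edgeR's quasi-likelihood test.

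NRP2, the receptor for SEMA3F and also for VEGF-C, was low in every library. It had 35 and 75 counts in SMARCB1 DMSO, 214 and 109 in SMARCB1 Dox, 7 and 11 in GFP DMSO, and 1 and 5 in GFP Dox. In CPM these are 5.84 and 5.84, then 17.9 and 17.3, then 0.576 and 0.764, then 0.165 and 0.74. The 2 Dox libraries of the SMARCB1 line were close to each other and above both DMSO libraries, and all 4 lay above the GFP line.

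The log2 Dox effect on NRP2 in the SMARCB1 line was 1.59 ± 0.44, a fold of 3.01 and, in the main fit, the largest of the 10 genes. Its adjusted p was 0.415 from edgeR's quasi-likelihood test, with a range of 0.106 to 1 over the alternatives, so it did not pass. Leaving out any library kept the effect between 1.56 and 1.62, while that of SEMA3B was larger, at 2.07, without SMARCB1 DMSO replicate 2. From the pooled NRP2 counts the ratio of Dox to DMSO was 3.03 with an exact 95% interval of 2.43 to 3.79 for counting error only. For the GFP line the 6 Dox counts were 0.691 times the 18 DMSO counts after scaling, with exact limits of 0.225 and 1.82, so neither direction was detectable at this depth. This ratio was 1.09 without GFP Dox replicate 1 and 0.244 without GFP Dox replicate 2. The difference between the effects was 2.11 ± 0.84 with an adjusted p of 0.981 from edgeR (range 0.116 to 1), with 1.46 without GFP Dox replicate 1 and 3.54 without GFP Dox replicate 2.

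Between the lines, the log2 difference of NRP2 was 3.09 under DMSO and 5.20 under Dox. The latter was 4.55 without GFP Dox replicate 1 and 6.63 without GFP Dox replicate 2, since the 2 libraries hold 1 and 5 counts. By density NRP2 made up 3.21% and 3.63% of the 2 neuropilins in SMARCB1 DMSO, 13% and 10.6% in SMARCB1 Dox, 0.363% and 0.576% in GFP DMSO, and 0.112% and 0.494% in GFP Dox. NRP1 was thus the main neuropilin in all 8 libraries. The summed neuropilin density was 61.4 ± 5.3, 53.8 ± 6.29, 52.2 ± 6.58 and 53.2 ± 0.566 CPM per kb in SMARCB1 DMSO, SMARCB1 Dox, GFP DMSO and GFP Dox. Exons of a long noncoding RNA on the opposite strand cover 480 coding bases of NRP1 and 147 of NRP2, and since the strand option of the counting is not given, reads of either RNA there cannot be told apart.

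Among the plexins, PLXNA1, the signal-transducing partner of NRP1 for SEMA3A, had 284 and 177 CPM in SMARCB1 DMSO, 225 and 212 CPM in SMARCB1 Dox, 116 and 148 CPM in GFP DMSO, and 136 and 146 CPM in GFP Dox. The SMARCB1 line libraries lay above the GFP line, but the gap between the nearest libraries was only 1.19-fold and the log2 difference was 0.80 under DMSO and 0.63 under Dox, or 0.59 under Dox without GFP Dox replicate 1 and 0.69 without replicate 2. PLXND1, the receptor for SEMA3E on endothelium, ranged from 34.3 to 48.8 CPM in the SMARCB1 line, overlapping the 39.2 to 58.4 CPM of the GFP line. The highest PLXND1 value was that of GFP Dox replicate 1. Neither plexin had Dox libraries apart from the DMSO libraries in either line. The fitted effects of Dox were -0.07 ± 0.26 and 0.23 ± 0.26 in the SMARCB1 line for PLXNA1 and PLXND1. That of PLXND1 in the GFP line was 0.29 ± 0.26, or 0.02 without GFP Dox replicate 1 and 0.52 without replicate 2.

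**Figure D4:**
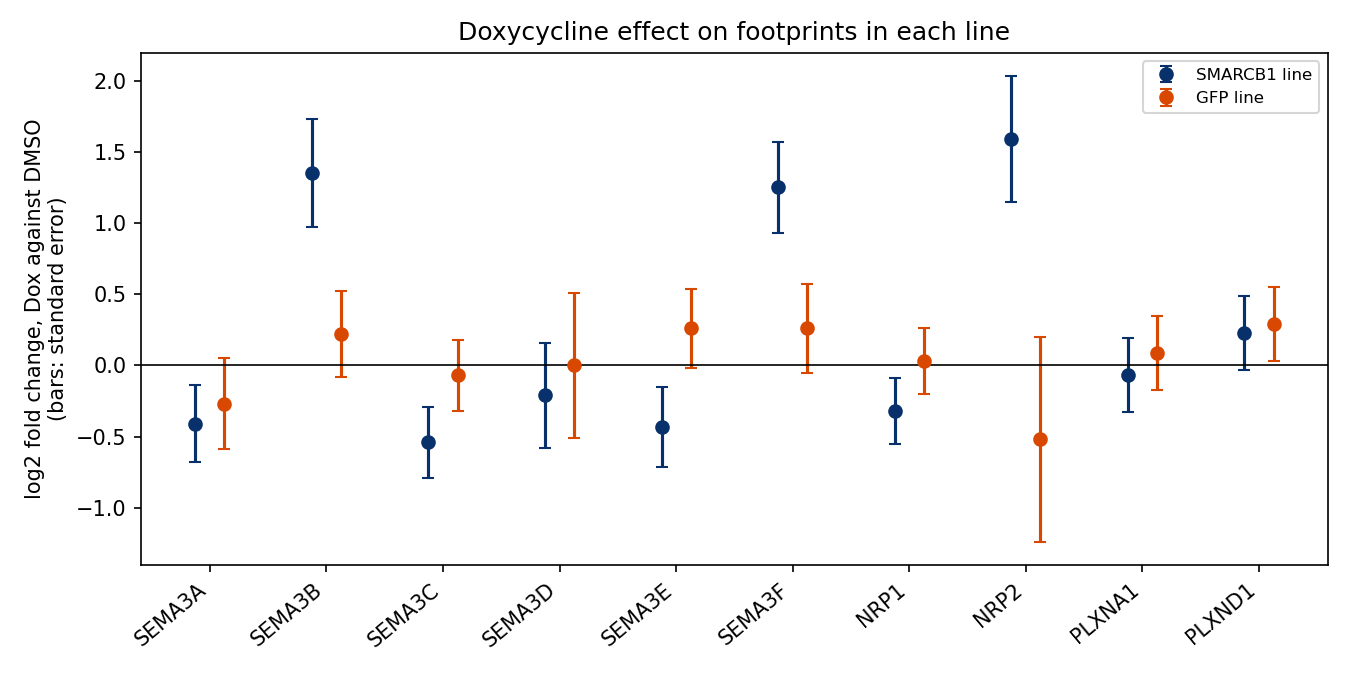
Log2 fold change in footprints under Dox against DMSO for each gene in both lines (points, 1 color per line), with an approximate standard error derived from the edgeR test (bars). SEMA3B, SEMA3F and NRP2 lie between 1.25 and 1.59 in the SMARCB1 line, and 0 of the 10 genes passed the test in either line.

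The promoters of these 3 genes are shown because they share the order of Dox above DMSO in the SMARCB1 line, from the same RefSeq table, with GRCh38.p14 positions and capitals for the same motifs. SEMA3B (chr3:50268911-50269210, plus strand) has 64% GC, 9 CpG and 1 GC box, in a window whose start lies 14 bases from the canonical one. SEMA3F (chr3:50155074-50155373, plus strand) has 80.7% GC, 47 CpG and 2 GC boxes. NRP2 (chr2:205682251-205682550, plus strand) has 70% GC, 33 CpG and 3 GC boxes. All 3 hold the GC box, which 45.0% of all promoters hold, and 0 matches of the other motifs. The GC box is also held by SEMA3C (3), PLXNA1 (5) and PLXND1 (9), so it does not mark the 3 genes.
SEMA3B: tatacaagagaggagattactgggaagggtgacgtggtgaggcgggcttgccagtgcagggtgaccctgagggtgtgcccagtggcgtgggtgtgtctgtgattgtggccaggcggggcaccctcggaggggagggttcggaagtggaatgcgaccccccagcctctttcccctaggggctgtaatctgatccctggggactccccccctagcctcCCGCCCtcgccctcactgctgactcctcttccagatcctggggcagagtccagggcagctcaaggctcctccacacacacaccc
SEMA3F: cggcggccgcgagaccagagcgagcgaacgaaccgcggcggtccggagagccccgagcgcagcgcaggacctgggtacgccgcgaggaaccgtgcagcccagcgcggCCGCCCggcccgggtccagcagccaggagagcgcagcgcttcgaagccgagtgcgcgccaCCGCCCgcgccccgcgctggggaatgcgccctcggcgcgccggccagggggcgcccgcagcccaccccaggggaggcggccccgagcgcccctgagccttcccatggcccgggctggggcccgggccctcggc
NRP2: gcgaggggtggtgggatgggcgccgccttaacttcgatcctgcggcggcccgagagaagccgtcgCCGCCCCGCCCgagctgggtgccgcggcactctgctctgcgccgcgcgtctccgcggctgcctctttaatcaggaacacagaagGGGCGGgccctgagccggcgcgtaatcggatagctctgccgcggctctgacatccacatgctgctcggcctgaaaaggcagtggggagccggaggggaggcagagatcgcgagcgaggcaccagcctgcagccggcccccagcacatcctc

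The wider pathway was followed through a list of 70 other genes. Of these, 5 were at 0 in all libraries and 53 were tested. SEMA3G, the remaining class 3 ligand, was not tested, with 5 counts in each group of the SMARCB1 line and 2 and 1 in GFP DMSO and GFP Dox. By the mean over the 8 libraries, the highest footprint density in each role belonged to PLXNB2 among the other plexins (49.9 CPM per kb in SMARCB1 DMSO and 35.5 in GFP DMSO), SEMA6B among the other semaphorins (42.7 and 42.6), PTK7 among the co-receptors (162 and 172), VEGFB among the VEGF ligands (6.88 and 15.3), PCSK7 among the convertases that cleave semaphorins (22.4 and 17.1), and the actin-severing CFL1 among the signaling genes (3860 and 2610). The mean of VEGFA in SMARCB1 DMSO, 7.52 CPM per kb, was above that of VEGFB, with overlap of the libraries, and in GFP Dox the means of FURIN (20.1) and PCSK5 (19.6) were above that of PCSK7 (19.1). The VEGF receptor KDR was at 0 in all libraries.

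For the Dox effect, edgeR called 0 of the 53 tested pathway genes in the SMARCB1 line, in the GFP line and for the difference, and DESeq2 called 0 in each. At an unadjusted p below 0.05 from edgeR the numbers were 6, 1 and 2, beside 552, 240 and 443 of all 11097 genes. The median log2 effect of the pathway genes was -0.00 in the SMARCB1 line, against 0.08 in the GFP line. Between the lines under DMSO, 3 of the 53 were called higher in the SMARCB1 line and 3 lower, which is 11.3% beside 4.97% of all genes. Under Dox 2 were called higher and 1 lower, 5.66% beside 6.08% of all genes. With the replicate number as a block in the model, 5 were called under Dox, 9.43% beside 6.61%. With library size only, 4 were called under DMSO, 7.55% beside 4.69%. The counts of the main fit include PCSK6 and CHL1, which passed the filter through 1 line only. Over the genes that reached it in both lines, a restriction chosen after seeing the data, 4 of 49 were called under DMSO, 8.16% beside 3.82% of all such genes, and 1 of 49 under Dox, 2.04% beside 4.82%. These 4 include FYN, which counts for both lines only through SMARCB1 Dox. Under DMSO it reached the filter only in the GFP line, so the restriction does not free this call of the filter. Without GFP DMSO replicate 1 or 2 the pathway count under DMSO was 3 or 2, which is 5.66% or 3.77% beside 2.89% or 2.67% of all genes. Without GFP Dox replicate 2 the count under Dox was 5 of 57, 8.77% beside 11.8%.

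PCSK6, a convertase of the family that processes class 3 semaphorins, was called higher in the SMARCB1 line under both treatments, with 66 and 104 counts in SMARCB1 DMSO, 199 and 95 in SMARCB1 Dox, 0 and 3 in GFP DMSO and 0 and 1 in GFP Dox. It passed the expression filter only through its level in the SMARCB1 line, so a difference between the lines was a condition of its being tested. DPYSL2, also known as CRMP2 and needed for growth cone collapse by SEMA3A, was called higher under both treatments as well. Its level was 50.4 and 37.1 CPM in SMARCB1 DMSO, 83.9 and 65 CPM in SMARCB1 Dox, 6.99 and 9.24 CPM in GFP DMSO, and 9.93 and 9.61 CPM in GFP Dox. SEMA4F, a transmembrane semaphorin, was called higher under DMSO with a log2 difference of 1.35 ± 0.32, and under Dox it was 1.14 ± 0.33 and not called, or 1.05 without GFP Dox replicate 1, also not called, and 1.23 without replicate 2, where it was called.

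Of the genes called lower in the SMARCB1 line, the co-receptor CHL1, an adhesion protein of the L1 family, had between 1 and 7 counts in each library of that line and between 33 and 94 in the GFP line. It was called under both treatments, and it passed the filter only through the GFP line, with the same condition. The kinase FYN, which acts below plexin A, had 5 and 1 counts in SMARCB1 DMSO and 41 and 71 in GFP DMSO, and was called under DMSO. Of the groups compared, FYN reached the filter only in GFP DMSO, where it was high. LIMK2, a kinase of cofilin, had 30.9 and 30.1 CPM in SMARCB1 DMSO and 62.4 and 61.6 CPM in GFP DMSO, and was called under DMSO with a log2 difference of -1.03 ± 0.23. Its fold of 2.04 was just above the limit of 2 for a call. Under Dox, FYN and LIMK2 were not called, at -0.98 ± 0.80 and -0.58 ± 0.23, or -1.40 and -0.46 without GFP Dox replicate 1 and -0.36 and -0.69 without replicate 2.

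The genes whose pattern over the 8 libraries was most like that of SEMA3A, by Pearson's r of log2 CPM, were MYH2 (0.9981), DIAPH2 (0.9969), NT5E (0.9964), COL4A6 (0.9963) and PAG1 (0.9957). Each was high in the SMARCB1 line and low in the GFP line, as MYH2 with a mean of 24.2 against 0.0955 CPM and PAG1 with 226 against 8.12 CPM. The GFP line means of DIAPH2, NT5E and COL4A6 were 0.0206, 0.419 and 0.227 CPM. For MYH2 and these genes, the GFP line was too low to pass the filter, so a level in the SMARCB1 line was a condition of being tested. The 8 libraries form 2 clusters by line, so r mostly restates the difference between the lines, and 387 of the genes tested had an r above 0.9. Among the 10 genes, r with SEMA3A was 0.96 for SEMA3E, 0.958 for SEMA3D, 0.94 for NRP2, 0.861 for PLXNA1 and -0.954 for SEMA3B. For SEMA3C it was 0.414, for NRP1 0.0978, for PLXND1 -0.244 and for SEMA3F -0.397.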

How the data were processed

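The authors deposited counts of ribosome footprints per gene for the 8 libraries (RiboLace). Per the submitters' processing notes and the methods, reads were aligned to hg38 with STAR and counted with HTSeq (intersection-strict) on coding sequences of GENCODE 42. Versions, the strand option and the handling of adapters, duplicates and ribosomal RNA are not given in the sources used here. The 5 HTSeq totals per file that name no gene were left out, and 52.8% to 61.8% of unique reads fell on coding sequence. Names and positions came from GENCODE 44 (311 IDs unmatched). RNA-seq was not analysed here.

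After filterByExpr and TMM scaling, 1 glmQLFit model was fitted to the 8 libraries (R 4.3.3, edgeR 4.0.16), and genes were called at a Benjamini-Hochberg adjusted p below 0.05 and a fold above 2. Standard errors were derived as the absolute log2 effect divided by the square root of edgeR's F statistic. They are approximate, most of all for very small effects. Log2 CPM used a prior count of 2. Intervals are exact (Clopper-Pearson, 95%) and cover counting error only, and the depth limits them. Replicates differed by more than sampling noise (chi-square per degree of freedom 14.5 to 45.5). The code of the tests was run on simulated counts with the same spread for every gene, where only genes with many counts were changed. That run does not show how often changes of low-count genes would be called here.

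Alternatives were DESeq2 1.42.0, its size factors, library size only, no filter, 10 counts in every library, robust fitting, only the groups compared, the replicate block, other coding lengths, genes at the filter in both lines (added after seeing the data) and leaving out each library. The 10 genes, the pathway and marker lists were chosen with earlier results of these data known. From the pathway list the text names called genes (up to 5 by p in each direction) and the densest gene of each role, and also the nearest neighbors and the 5 genes most like SEMA3A. GNAI1, GNAT3, CACNA2D1, SHISA5, ZNF589, VEGFA, FURIN, PCSK5 and the called neighbors of NRP2 and the plexins were named after their values were seen.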

Additional observations from a re-analysis of the deposited data

How the results depend on the processing

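For the Dox effects, 0 of the 10 genes and 0 of the pathway genes were called under each alternative and with each library left out. With 10 counts in every library only 7 of the 10 were tested (not SEMA3B, SEMA3D and NRP2), and with only the groups compared NRP2 was not tested in the GFP line. The difference between the effects was not fitted with only the groups compared. The filter in both lines was applied only to the comparisons of the lines. The number of all genes called in the SMARCB1 line was 34 with DESeq2, 46 with no filter, 1 with 10 counts in every library and 5 with only the groups compared. In the GFP line it was 14 with no filter, and for the difference 1 with DESeq2 and 15 with no filter. Between the lines, 10 counts in every library, which removes genes low in either line, left 288 genes (3.06%) and 3 pathway genes (6.98%) called under DMSO, and 377 (4%) and 1 (2.33%) under Dox. No calls of the 10 genes between the lines are given, since that contrast chose them. Over genes at the main filter in a library of both lines, chosen after seeing the data, 4 pathway genes (8.16% beside 3.82% of all such genes) were called under DMSO and 1 (2.04% beside 4.82%) under Dox instead of 3. The 4 include FYN, which under DMSO reached the filter only in the GFP line. Apart from these filters, the cause of these shifts was not tested. Leaving out each library gave 1 to 22 genes called in the SMARCB1 line, 0 to 147 in the GFP line and 0 to 105 for the difference, the highest without GFP Dox replicate 2 (for the SMARCB1 line also without GFP Dox replicate 1). Between the lines it gave 299 to 668 genes under DMSO, lowest without GFP DMSO replicate 2, and 348 to 1372 under Dox, lowest without SMARCB1 Dox replicate 1 and highest without GFP Dox replicate 2. Pathway genes called ranged from 2 to 7 (3.77% to 12.3%, beside 2.67% to 5.76% of all genes) and from 2 to 5 (3.51% to 8.77%, beside 3.12% to 11.8%). A lone library left in a group is assumed to vary like the other groups.

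With the replicate block, 13 genes were called in the SMARCB1 line and 5 pathway genes between the lines under Dox (9.43% beside 6.61% of all genes), and no other count moved by over 1.5 times. Same-numbered libraries of different groups deviated together with correlations of 0.0454 to 0.28, so the pairing of the replicates is not established.

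Some fitted log2 effects changed sign, and the cause was not tested. With library size only, PLXNA1 was 0.02 in the SMARCB1 line and NRP1 -0.05 in the GFP line, and the difference between the effects was 0.03 for SEMA3A, 0.04 for SEMA3D, 0.01 for PLXNA1 and 0.14 for PLXND1. SEMA3D in the GFP line was 0.01 with DESeq2's size factors, with DESeq2 and with only the groups compared. Leaving out each library in turn gave -0.45 to 0.00 for SEMA3D and -0.37 to 0.30 for PLXNA1 in the SMARCB1 line. For the GFP line it gave -0.85 to 0.12 for SEMA3A, -0.21 to 0.08 for SEMA3C, -1.63 to 0.78 for SEMA3D, -0.16 to 0.57 for SEMA3E, -0.10 to 0.16 for NRP1, -1.95 to 0.13 for NRP2 and -0.07 to 0.28 for PLXNA1. For the difference it gave -0.53 to 0.44 for SEMA3A, -0.98 to 1.42 for SEMA3D, -0.47 to 0.21 for PLXNA1 and -0.29 to 0.21 for PLXND1.

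Depth limits NRP2 and SEMA3D in the GFP line, where a group holds 6 to 61 counts, and SEMA3B in SMARCB1 DMSO, which holds 44. With the union of coding exons as length, the density of NRP1 in SMARCB1 DMSO was 45.2 instead of 59.3 CPM per kb, still below SEMA3C at 232, and in GFP DMSO it was 39.5 instead of 51.9 and overlapped SEMA3E.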

Other observations

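FLT1, a VEGF receptor tyrosine kinase and in some tissues a partner of neuropilins, had 15 and 9 counts in SMARCB1 Dox, 0 and 1 in SMARCB1 DMSO, and 0 in each of the 4 GFP line libraries. It was named after its values were seen. It passed the expression filter only through the 2 SMARCB1 Dox libraries, so a level there was a condition of its being tested. Its fitted log2 effect of 4.38, higher in both Dox libraries, did not pass, with an adjusted p of 0.765 from edgeR's quasi-likelihood test. DPYSL5, a relative of DPYSL2 named in the same way, had 15.7 and 23.4 CPM in SMARCB1 DMSO and 36.7 and 43.8 CPM in SMARCB1 Dox, with a log2 effect of 1.03 ± 0.30 and an adjusted p of 0.482. In the GFP line it had 21.4 and 26.3 CPM under DMSO and 41 and 27.1 CPM under Dox, and the difference between the effects was 0.52 ± 0.43 with an adjusted p of 0.981 from edgeR, or 0.84 without GFP Dox replicate 1 and 0.25 without GFP Dox replicate 2.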
